A study of Mus musculus with 6 samples.

Results

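BMPs and GDFs are secreted growth factors, and 10 genes of this family and of its inhibitors were followed in the proximal tibial epiphysis of Longshanks and Control mice. The ligand genes are *Bmp2*, *Bmp4*, *Bmp6*, *Bmp7*, *Gdf5* and *Gdf10*. The antagonist genes are *Nog*, *Grem1* and *Chrdl1*, whose products bind ligands outside the cell, and *Bambi*, which codes for a decoy receptor in the cell membrane. They were chosen by symbol from the 47729 genes in the deposited table, each matched 1 Ensembl identifier, and all 10 were among the 19308 genes tested.

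In this pathway a ligand dimer joins type I and type II receptors, which phosphorylate SMAD proteins that enter the nucleus with a shared partner SMAD and switch on target genes such as those of the *Id* family. Antagonists bind the ligand or the receptor and set how far and how strongly the signal acts, and several of them are themselves targets of the signal. In the growth plate, BMP signaling is known to support chondrocyte proliferation and maturation, while GDF5 and noggin are known for their roles in joint formation.

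Libraries were made from polyadenylated RNA taken from 3 mice of each line at 14 days of age, drawn from different families of generation F13. LS1 is 1 Longshanks line, bred for a tibia that is long for the body mass, and Control is a line bred at random from the same stock (CD-1 in the study's methods, ICR in the labels). No allele, transgene or treatment was used, and each library came from the pooled left and right epiphyses of 1 mouse. Only 1 selected line was sequenced, so an effect of selection and any other difference between separately bred lines cannot be told apart. The sampled piece held growth plate, joint cartilage, young bone and marrow together, so fewer cells of a type and less RNA per cell cannot be told apart either.

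Values are normalized counts, that is, reads per gene divided by 1 size factor per library. The recovered totals ran from 68803249 to 88745366 reads, with the LS1 libraries the deeper ones. Each of the 12 chondrocyte markers had reads in all libraries, and so did the markers of osteoblasts, osteoclasts, marrow and muscle, as the label of bone, cartilage and marrow states. On the first principal component of all genes tested LS1 replicate 3 lay between the Control libraries and the other LS1 libraries. The abundant reads of *Xist* in Control replicates 1 and 2 and LS1 replicate 2, against abundant Y-linked reads in the other 3 libraries, mark an unequal split of these reads between the groups. Sex is not in the labels.

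For 4 of the 10 genes RefSeq (build GRCm38.p6) gave a promoter, and the 250 bases before the start site are shown for *Gdf10* and *Grem1*, whose groups did not overlap in the libraries, and for *Bmp4*, whose groups did. The RefSeq start of *Bmp6* lies inside the first exon of the GENCODE annotation, in its untranslated part, so that window is not shown. Capitals mark GGGCGG, the GC box, and GGCGCC, a GC-rich element to which BMP SMADs are known to bind, on either strand, with overlapping matches joined.
Gdf10, chr14:33923337-33923586, plus strand: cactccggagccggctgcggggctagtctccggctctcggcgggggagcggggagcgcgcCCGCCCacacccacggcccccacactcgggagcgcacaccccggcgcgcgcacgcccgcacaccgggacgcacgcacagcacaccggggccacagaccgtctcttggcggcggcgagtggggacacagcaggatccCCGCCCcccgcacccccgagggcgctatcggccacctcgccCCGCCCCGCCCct
Grem1, chr2:113758649-113758898, minus strand: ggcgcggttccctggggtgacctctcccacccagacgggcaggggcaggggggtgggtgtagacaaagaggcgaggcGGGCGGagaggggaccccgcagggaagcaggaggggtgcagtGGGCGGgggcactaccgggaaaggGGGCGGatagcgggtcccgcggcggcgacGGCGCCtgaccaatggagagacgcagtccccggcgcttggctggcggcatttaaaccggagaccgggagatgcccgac
Bmp4, chr14:46390670-46390919, minus strand: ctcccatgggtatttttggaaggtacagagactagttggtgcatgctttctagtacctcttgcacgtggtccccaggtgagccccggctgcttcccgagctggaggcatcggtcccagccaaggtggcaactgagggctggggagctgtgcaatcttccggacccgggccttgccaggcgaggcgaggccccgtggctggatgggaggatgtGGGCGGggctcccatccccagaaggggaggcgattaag

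The *Gdf10* window held 4 GC boxes, that of *Grem1* 3, and those of *Bmp4* and *Bmp6* 1 each. Among 32851 windows of the same length in the RefSeq table, 32.7% held a GC box. The element GGCGCC was found in the *Grem1* window alone of these 4, and 9.59% of all windows held it. TATAAA was in none of the 4, against 12.4% of all windows. The GC content was 78.8% for *Gdf10*, 72.0% for *Grem1*, 68.8% for *Bmp6* and 63.2% for *Bmp4*, and its median over all windows was 52.4%.

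The comparison of LS1 with Control asked which transcripts differ in the line with long tibiae. The 4 antagonist genes had higher means in LS1, as did 5 of the 6 ligands, all but *Bmp7*. The groups did not overlap in 3 antagonists, all but *Chrdl1*, and in 2 ligands, *Gdf10* and *Gdf5*. They overlapped in *Bmp2*, *Bmp4*, *Bmp6* and *Bmp7*. At an adjusted p-value under 0.05, limma called 0 of the 10 genes and 0.0725% of all genes tested. In the mean 9 of the 10 were higher in LS1, where 50.7% of all genes tested were. At an unadjusted p-value under 0.05, 4 of 10 were higher in LS1, namely *Gdf10*, *Nog*, *Grem1* and *Chrdl1*, and none was lower, where 7.08% of all genes tested were higher and 5.86% lower. That count was 2 without Control replicate 2 and 2 without LS1 replicate 1. On the recovered reads edgeR called 0 of the 10 and DESeq2, the test of the study, called 2, *Gdf10* and *Nog*, where DESeq2 called 1.43% of all genes as higher and 0.943% as lower. limma-voom also called 0. In 5 of the 10 genes the lowest LS1 library was above the highest Control library, against 10.3% of all genes tested, and the reverse held in 0, against 8.94%. The median log2 fold change was 0.37 over the 10 genes and 0.0054 over all genes tested.

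**Figure D1:**
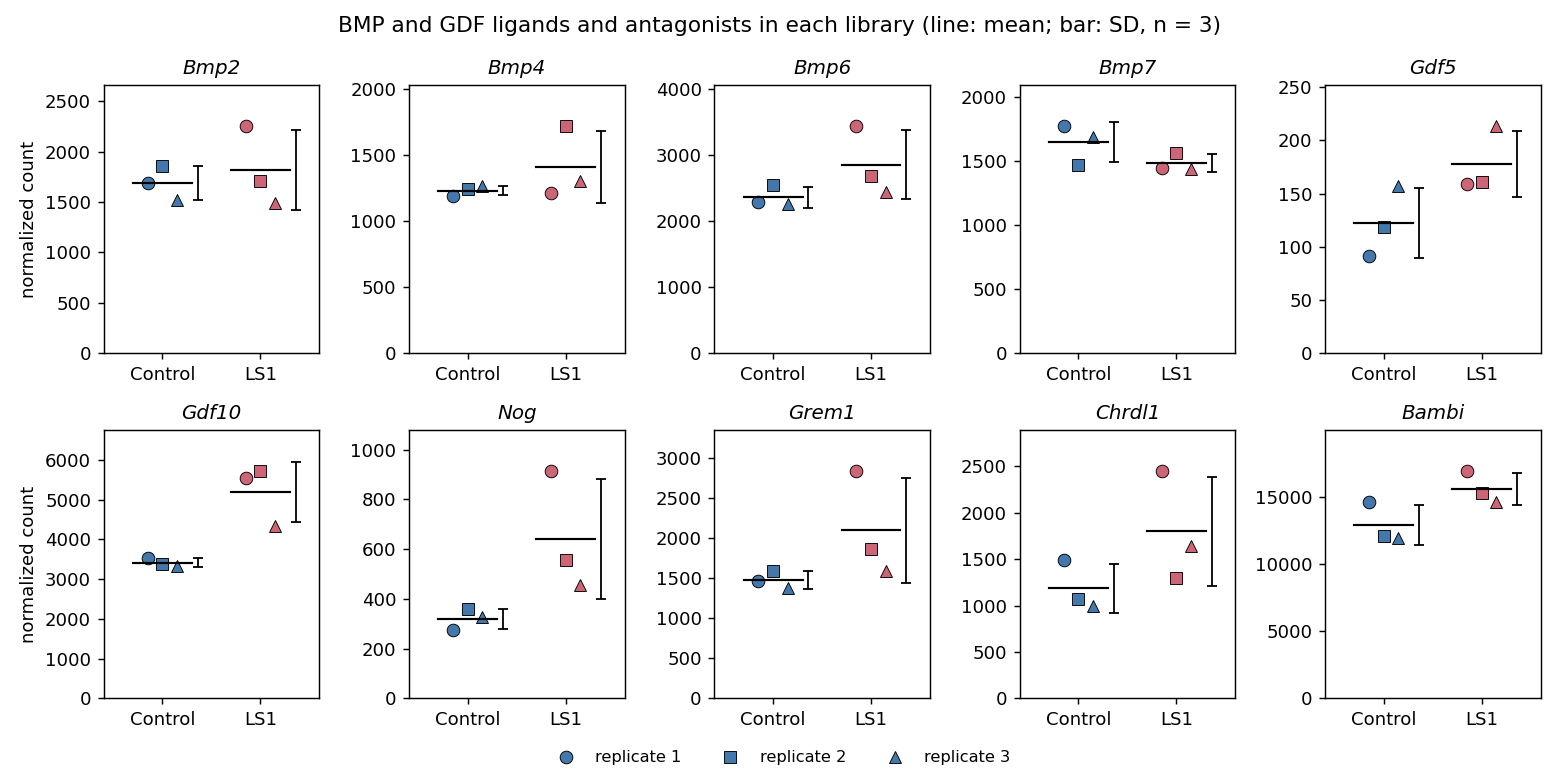
Normalized counts of the 10 genes in each library, with Control in blue and LS1 in red, a symbol for each replicate number, a line at the mean and a bar for the SD (n = 3). The LS1 libraries lie above the Control libraries for *Gdf5*, *Gdf10*, *Nog*, *Grem1* and *Bambi*, and LS1 replicate 1 is the highest library for *Nog*, *Grem1*, *Chrdl1* and *Bambi*.

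*Bmp2* (ENSMUSG00000027358, chromosome 2 from 133552159 to 133562885 of GRCm38), a ligand known to drive chondrocyte maturation, had 1693, 1858 and 1524 normalized counts in Control and 2256, 1710.0 and 1488 in LS1. LS1 replicate 1 was the highest and LS1 replicate 3 the lowest of the 6 libraries, so the Control range lay within that of LS1. The log2 fold change was 0.09 with a 95% interval of -0.31 to 0.48 (limma adjusted p = 0.874), and it ran from -0.080 without LS1 replicate 1 to 0.22 without LS1 replicate 3. *Bmp4* (ENSMUSG00000021835, chromosome 14 from 46383520 to 46390669), the closest relative of *Bmp2*, had 1189.6, 1239 and 1262 in Control and 1208, 1719 and 1299 in LS1. Here LS1 replicate 2 stood above the 5 other libraries, which were close together. The log2 fold change of *Bmp4* was 0.18 with an interval of -0.20 to 0.56, and it was 0.027 without LS1 replicate 2 and 0.28 without LS1 replicate 1.

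*Bmp6* and *Bmp7* belong to another branch of the ligands and signal largely through other type I receptors than *Bmp2* and *Bmp4*. *Bmp6* (ENSMUSG00000039004, chromosome 13 from 38345107 to 38500302) had 2286, 2539 and 2253 normalized counts in Control and 3438, 2681 and 2436 in LS1, with LS1 replicate 3 inside the Control range. Its log2 fold change was 0.26, with an interval of -0.09 to 0.61, and it was 0.12 without LS1 replicate 1. Exons of *Bmp6* share 224 bases with *Txndc5* on the opposite strand, which had a mean of 22615 normalized counts, and the strand setting of the counting is not given in the sources used here, so reads from those bases cannot be assigned to either gene. *Bmp7* (ENSMUSG00000008999, chromosome 2 from 172868012 to 172940321) was the ligand with a lower mean in LS1. Its values were 1772, 1469 and 1689 in Control and 1443, 1560.4 and 1436 in LS1, with Control replicate 2 inside the LS1 range. The log2 fold change was -0.15 with an interval of -0.48 to 0.18 (limma adjusted p = 0.709), and it was -0.09 without Control replicate 1 and -0.23 without Control replicate 2.

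*Gdf5* (ENSMUSG00000038259, chromosome 2 from 155941023 to 155945367), known as a marker of developing joints and a gene in which variants affect limb and joint form, was the least abundant of the 10 genes. Its normalized counts were 91.8, 119 and 157 in Control and 159, 161 and 214 in LS1. The groups did not overlap, but Control replicate 3 and LS1 replicate 1 were nearly equal. LS1 differed from Control by 0.55 on the log2 scale (standard error, SE, 0.28, limma adjusted p = 0.443), and it was 0.37 without Control replicate 1 and 0.75 without Control replicate 3. Its exons share 936 bases with *Gm15557* on the opposite strand, which had a mean of 1.2 normalized counts.

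*Gdf10* (ENSMUSG00000021943, chromosome 14 from 33923587 to 33937983), also called BMP3B and known to oppose other BMPs in several settings, had the smallest p-value among the ligands. Control lay close together at 3534, 3376 and 3331 normalized counts, and LS1 had 5542, 5718 and 4328. Each LS1 library was above each Control library, with LS1 replicate 3 the lowest of its group. Mean levels were 3414 ± 107 (SD, n = 3) for Control against 5196 ± 757 (SD, n = 3) for LS1, and their ratio was 1.52. The log2 fold change was 0.60 (SE 0.14, unadjusted p = 0.0015, limma adjusted p = 0.185, DESeq2 adjusted p = 0.0203). Without LS1 replicate 3 it was 0.72 (adjusted p = 0.0276 from limma), in a fit that called 1.17% of all genes as higher. The study picked *Gdf10* for its qPCR panel from these libraries, so its direction here is not independent of that choice. That qPCR used growth plate alone, from pooled mice of a later generation. There the study's estimate for *Gdf10* was higher in LS1, with a confidence interval that excluded equal levels. The study did not mark it as significant after its Bonferroni correction.

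Among the antagonists *Nog* had the largest difference. *Nog* (ENSMUSG00000048616, chromosome 11 from 89300638 to 89302332) codes for noggin, which covers the receptor-binding surfaces of BMP ligands. It had 276, 358 and 326 normalized counts in Control and 914, 557 and 455 in LS1. Every LS1 library was above every Control library, and LS1 replicate 1 stood far above the other 2. Mean levels were 320.3 ± 41.1 (SD, n = 3) for Control against 642 ± 241 (SD, n = 3) for LS1, and their ratio was 2.0. LS1 differed from Control by 0.95 on the log2 scale (SE 0.27, unadjusted p = 0.00434, limma adjusted p = 0.23, adjusted p = 0.0186 from DESeq2). It was 0.66 without LS1 replicate 1 and 1.16 without LS1 replicate 3 (adjusted p = 0.0491 from limma).

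*Grem1* (ENSMUSG00000074934, chromosome 2 from 113746164 to 113758646) codes for gremlin 1, which binds *Bmp2*, *Bmp4* and *Bmp7* products. Its values were 1466, 1585 and 1374 in Control and 2832, 1856 and 1588 in LS1. LS1 replicate 3 was above Control replicate 2 by 3.15 normalized counts, and LS1 replicate 1 carried much of the difference. LS1 differed from Control by 0.46 on the log2 scale (SE 0.21, limma adjusted p = 0.377), and it was 0.22 without LS1 replicate 1. *Chrdl1* (ENSMUSG00000031283, chromosome X from 143285674 to 143394262) codes for chordin-like 1, a secreted ligand trap. It had 1486, 1074 and 995 in Control and 2448, 1299 and 1646 in LS1, and LS1 replicate 2 lay inside the Control range. LS1 differed from Control by 0.57 on the log2 scale (SE 0.24, limma adjusted p = 0.346), with 0.33 when LS1 replicate 1 was left out. Since *Chrdl1* is X-linked, the libraries were also set side by side by their *Xist* reads. The log2 difference of LS1 from Control was 0.04 among the 3 libraries with *Xist* and 1.01 among the 3 with Y-linked reads, with 1 library on one side each time and no test.

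*Bambi* (ENSMUSG00000024232, chromosome 18 from 3507923 to 3516404), a receptor-like protein with no kinase domain, had 14596, 12116 and 11944 normalized counts in Control and 16934, 15319 and 14619 in LS1. The groups were apart by 23.0 normalized counts, between Control replicate 1 and LS1 replicate 3. Its log2 fold change was 0.28 with an interval of -0.01 to 0.57 (limma adjusted p = 0.403). For *Nog* the difference between the groups was 0.82 among the libraries with *Xist* and 0.98 among those with Y-linked reads, and for *Gdf10* it was 0.73 and 0.56. In the same order it was 0.62 and 0.23 for *Gdf5*, 0.28 and 0.63 for *Grem1*, and 0.20 and 0.40 for *Bambi*. For *Bmp2* it was -0.05 and 0.27, for *Bmp4* 0.50 and -0.01, for *Bmp6* 0.15 and 0.36, and for *Bmp7* -0.05 and -0.23.

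Read counts grow with transcript length, so levels of different genes were compared per kilobase of exon. On this scale *Bambi* was the most abundant of the 10 genes in both groups, at 2539.5 ± 292 (SD, n = 3) normalized counts per kilobase in Control, with 3079 ± 234 (SD, n = 3) for LS1. *Gdf10* came next with 655 ± 20.5 (SD, n = 3) for Control against 997 ± 145 (SD, n = 3) for LS1, though its range overlapped that of *Bmp6* in each group. The order in Control went on with *Bmp6*, *Bmp4*, *Bmp2*, *Bmp7*, *Grem1*, *Nog*, *Chrdl1* and *Gdf5*. Of these neighbours, *Bmp2* and *Bmp7*, *Bmp7* and *Grem1*, and *Nog* and *Chrdl1* overlapped in Control. In LS1 *Grem1* and *Nog* stood before *Bmp7*, but from *Gdf10* down to *Chrdl1* each gene overlapped with the next. The mean level of *Nog* was 189 ± 24.3 (SD, n = 3) for Control against 379 ± 142 (SD, n = 3) for LS1, and that of *Bmp7* was 409 ± 38.9 (SD, n = 3) and 368 ± 17.4 (SD, n = 3). *Gdf5* was last with 52.8 ± 14.1 (SD, n = 3) for Control against 76.7 ± 13.3 (SD, n = 3) for LS1.

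**Figure D2:**
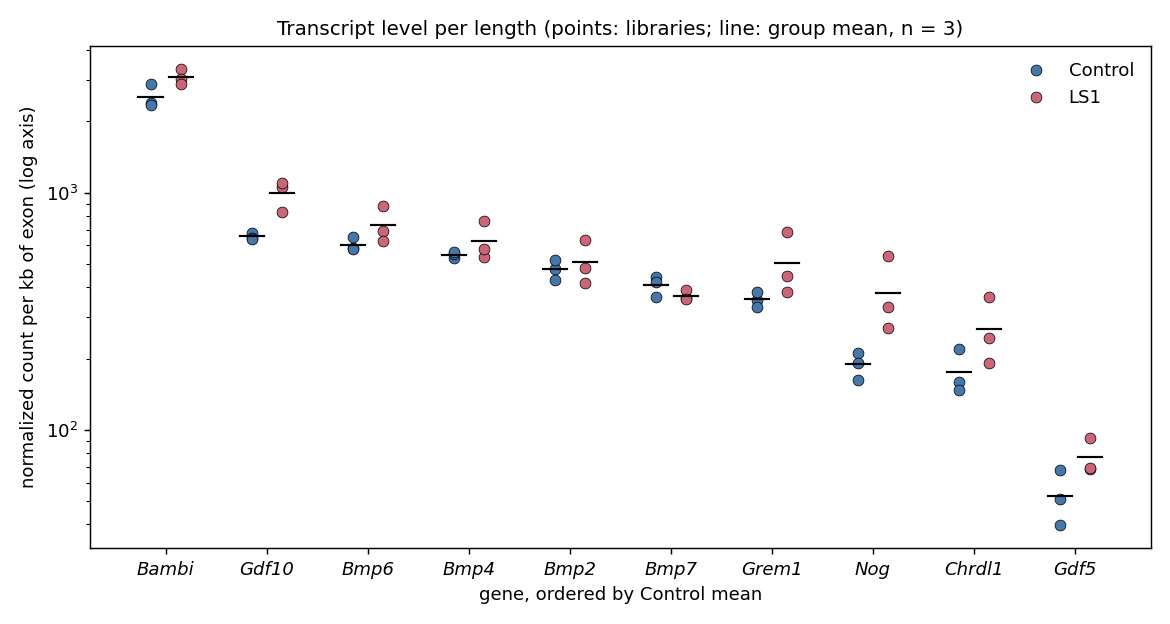
Normalized count per kilobase of exon on a log axis for the 10 genes, ordered by their Control mean, with a point for each library and a line at each group mean (n = 3). *Bambi* lies above all other genes and *Gdf5* below them in both groups, and the LS1 points of *Nog* and *Grem1* reach the level of *Bmp7*.

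The make-up of the ligand transcripts was then compared per library. *Gdf10* took 24.7%, 23.2% and 23.7% of the summed level per kilobase of the 6 ligands in Control and 30.0%, 31.5% and 28.6% in LS1. *Bmp7* held between 13.1% and 16.0% in Control and between 10.1% and 12.3% in LS1. Both shares kept the groups apart, in opposite directions, while the shares of the other ligands overlapped. Shares of the same sum depend on each other, so a larger *Gdf10* share lowers the rest. The *Bmp7* counts themselves overlapped between the groups. The summed level of *Nog*, *Grem1* and *Chrdl1* was 0.249 to 0.27 times that of the 6 ligands in Control. In LS1 it was 0.447 in replicate 1, 0.278 in replicate 2 and 0.309 in replicate 3, so that replicate 2 was just above Control. Without *Bmp6*, replicate 2 at 0.346 fell inside the Control range of 0.317 to 0.352. The ratio of *Bambi* to the ligands overlapped between the groups, with Control between 0.856 and 1.05 and LS1 between 0.865 and 0.993. These ratios are transcript levels and say nothing of protein.

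The markers of the chondrocyte list also had higher means in LS1, while those of hypertrophic chondrocytes were mixed. Of the 12 chondrocyte markers, 12 were higher in LS1 in the mean, 8 at an unadjusted p-value under 0.05, and 0 passed the adjusted threshold of limma (0.125 was the lowest adjusted p). Their summed normalized count lay between 2301299 and 2614487 in Control and between 2969085 and 3470026 in LS1, and none was at 0. *Hapln1*, *Matn3* and *Epyc* in this list were picked by the study from these libraries. The mean log2 level of the list was higher by 0.52 in LS1. Taken relative to that mean, which moves the median of all genes tested from 0.0054 to -0.51, the difference of *Nog* was 0.43 (SD 0.18 in Control and 0.44 in LS1, n = 3 each) and the groups overlapped. The differences of *Gdf10*, *Chrdl1*, *Gdf5* and *Grem1* were 0.08, 0.05, 0.04 and -0.06, each with overlapping groups. *Bmp7*, *Bmp2*, *Bmp4* and *Bambi*, at -0.67, -0.43, -0.34 and -0.24, had LS1 wholly below Control on this scale, and *Bmp6* at -0.26 overlapped. The direction for *Bmp2*, *Bmp4*, *Bmp6*, *Grem1* and *Bambi* thus depends on whether all genes or the chondrocyte list set the scale. Of 4 hypertrophic chondrocyte markers 2 were higher and 2 lower, with a median log2 fold change of 0.13. That median ran from -0.02 without LS1 replicate 3 to 0.31 without LS1 replicate 1. *Col10a1* in this list, also picked by the study from these libraries, had 0.61 (limma adjusted p = 0.158, 0.00367 from DESeq2), with LS1 above Control. *Ihh*, *Mmp13* and *Pth1r* had 0.34, -0.37 and -0.08, each with overlapping groups. The part of the cartilage markers in the differences of the 10 genes was not tested.

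Of 5 markers of the articular and joint surface, where *Gdf5* and *Grem1* are known to be expressed, 4 were higher. At an unadjusted p-value under 0.05, 1 of them was higher, *Efemp1*, which the study picked from these libraries. The median was 0.26, and 0.47 without LS1 replicate 3. Their summed count lay between 10259.8 and 12096 in Control and between 11643 and 18449.9 in LS1. Of 8 osteoblast and osteocyte markers 5 were higher and 3 lower, with a median of 0.049 that was -0.017 without Control replicate 3. Only *Bglap*, with a log2 fold change of -1.10, had an unadjusted p-value under 0.05 from limma. The sums of the list lay between 2359617 and 2875906 in Control and between 2122448 and 2373797 in LS1. Among other lists, 7 of 7 erythroid markers were lower (median -0.52), as were 6 of 7 B cell markers (median -0.48). Higher were 6 of 6 neutrophil markers (median 0.33), 6 of 6 macrophage markers (0.23) and 5 of 5 marrow stroma and adipocyte markers (0.37). So were 7 of 7 interferon-stimulated genes (median 1.42), of which 0 had an unadjusted p-value under 0.05 from limma and 1 had groups apart. At that threshold 2 erythroid and 5 B cell markers were lower. Higher there were 2 neutrophil, 1 macrophage and 2 stroma and adipocyte markers. Of all genes tested, 7.08% were higher and 5.86% lower. The list medians were -0.29 for erythroid markers without LS1 replicate 1, and -0.22 for B cell markers and 0.69 for interferon-stimulated genes without LS1 replicate 2. They were 0.16 for neutrophil markers without Control replicate 2 and 0.16 for the stroma and adipocyte list without LS1 replicate 3. The part of these cells and genes in the values of the 10 genes was not tested.

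The wider pathway was described by lists of 70 other genes, of which 62 passed the filter on reads. At an adjusted p-value under 0.05 limma called 0 of the 62, while 16 were higher at an unadjusted p-value under 0.05 and 0 were lower. Of all genes tested, 7.08% were higher and 5.86% lower at that unadjusted threshold. The same shares stand beside the counts of each list below. The 16 became 9 without Control replicate 2 and 10 without Control replicate 3. On the recovered reads edgeR and limma-voom called 0 and DESeq2 called 5, among them *Sostdc1*, *Smoc2*, *Mstn* and *Tll1*. DESeq2 called 1.43% of all genes as higher and 0.943% as lower. The median log2 fold change was 0.17, and 0.06 without LS1 replicate 3. The groups did not overlap in 25 of the 62, with LS1 above in 21 and below in 4. Among all genes tested LS1 was above in 10.3% and below in 8.94%.

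Other antagonists held 8 of the 16 genes. Of 17 tested, 8 were higher at an unadjusted p-value under 0.05 and 0 lower, with a median log2 fold change of 0.34. The 8 became 5 when any of Control replicate 1, Control replicate 2 and LS1 replicate 2 was left out, and the median was 0.54 without LS1 replicate 3. *Sostdc1*, a BMP and Wnt inhibitor also called ectodin, had 41.4, 35.5 and 21.0 normalized counts in Control and 109, 76.6 and 87.7 in LS1, a log2 fold change of 1.49 (SE 0.36, limma adjusted p = 0.194). It is low in this tissue, and its groups were apart, but it was named by its p-value. *Smoc2*, a matrix protein related to BMP inhibitors, was far more abundant, with 19948, 21119 and 17896 in Control and 30063, 33369.6 and 27521 in LS1. Its log2 fold change of 0.62 (SE 0.13, limma adjusted p = 0.151, 0.00678 from DESeq2) had the smallest p-value of these antagonists. *Smoc1*, its paralog, had a log2 fold change of 0.34.

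*Twsg1*, whose product binds chordin and BMPs together, had 7725, 8026 and 7773 normalized counts in Control and 12534, 10516 and 9438 in LS1, with a log2 fold change of 0.46 (limma adjusted p = 0.247). *Fst* codes for follistatin, which binds activins and some BMPs, and had a log2 fold change of 0.49. *Crim1* and *Bmper*, both with chordin-like repeats, had 0.45 and 0.43, with 0.29 for *Crim1* without LS1 replicate 1. The groups did not overlap in any of these 4 genes, but each was named for an unadjusted p-value under 0.05, which favours such a gap. Of all genes tested, 10.3% had LS1 wholly above Control. The antagonists were not all higher, since *Nbl1* had a log2 fold change of -0.36, *Dand5* -0.48 and *Sost*, the sclerostin gene of osteocytes, -0.40, with unadjusted p-values of 0.058, 0.0722 and 0.177. *Chrd*, which codes for chordin, had -0.09. The last 4 genes were chosen after their values were seen.

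**Figure D3:**
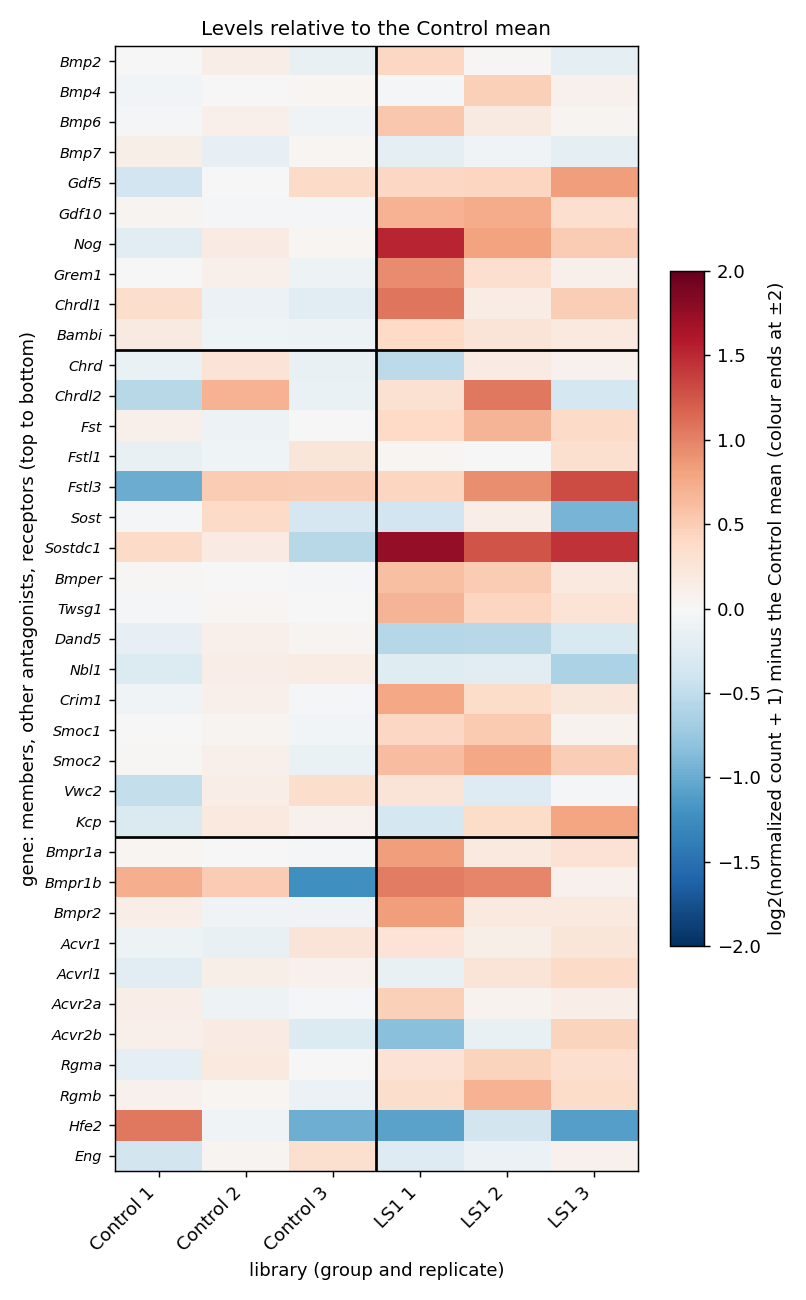
Log2(normalized count + 1) minus the Control mean for the 10 genes (top), other antagonists (middle) and the receptors and coreceptors (bottom), with a column for each library. *Sostdc1* has a mean difference of 1.49, and LS1 replicate 1 is darker than LS1 replicate 3 for *Nog*, *Grem1*, *Twsg1*, *Crim1*, *Bmpr1a* and *Bmpr2*.

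The other ligands showed no common direction. Of 15 listed, 10 were tested, 4 of them higher and 6 lower, with a median log2 fold change of -0.06 that ran from -0.15 without Control replicate 1 to 0.07 without Control replicate 3. Abundant ligands such as *Bmp3*, a ligand known to oppose bone formation, and *Bmp5* had log2 fold changes of 0.17 and 0.22, both chosen after their values were seen. *Mstn*, the gene of myostatin, had 11.1, 16.6 and 18.8 normalized counts in Control and 59.0, 43.5 and 99.8 in LS1, a log2 difference of 2.0 (SE 0.44, limma adjusted p = 0.162, 0.0105 from DESeq2). Myostatin is best known from skeletal muscle, and the 6 muscle markers of these libraries were lower in LS1 in the mean in 6 of 6 genes, with summed counts between 8113 and 19596 in Control and between 3865 and 11345 in LS1. The part of muscle in the *Mstn* values was not tested. *Gdf15*, a stress-responsive ligand, was low too, with a log2 fold change of 0.95 (limma adjusted p = 0.346).

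Of 11 receptors and coreceptors tested, 8 were higher in the mean, 3 at an unadjusted p-value under 0.05, and the median log2 fold change was 0.23. The 3 became 0 without Control replicate 2 or Control replicate 3, 2 without Control replicate 1 or LS1 replicate 2, and 1 without LS1 replicate 1. *Bmpr1a*, the main type I receptor of the growth plate, had 5273, 5106 and 5056 normalized counts in Control and 9182, 5909 and 6259.7 in LS1. The Control values were tight, and LS1 replicate 1 was far above the rest. LS1 differed from Control by 0.44 on the log2 scale (SE 0.17, limma adjusted p = 0.313), and it was 0.24 without LS1 replicate 1. *Bmpr2*, the type II receptor, was close to this, with 0.41 in all libraries and 0.20 without LS1 replicate 1. *Rgmb*, a coreceptor, had 0.47. The low *Bmpr1b* had 9.95 to 51.4 normalized counts in the 6 libraries, and its interval of -0.51 to 1.91 leaves its change undetermined. Its log2 fold change was 0.08 without Control replicate 3 and 1.06 without Control replicate 1.

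The receptor SMADs *Smad1*, *Smad5* and *Smad9* had log2 fold changes of 0.15, 0.23 and 0.17, with 0 of the 10 listed SMADs and regulators at an unadjusted p-value under 0.05 and a median of 0.10. *Smad1* and *Smad9* had 0.09 and 0.06 without LS1 replicate 1, *Smad9* had 0.28 without LS1 replicate 2, and *Smad5* had 0.13 without Control replicate 3. The count of 0 became 1 without Control replicate 1 and 2 without LS1 replicate 3. The list's median was 0.06 in the first of these fits and 0.17 when LS1 replicate 2 was left out. Of 13 target genes, which include *Nog* and *Bambi* themselves and share *Smad6* and *Smad7* with the SMAD list, 3 were higher at an unadjusted p-value under 0.05 and the median log2 fold change was 0.12. That median was 0.02 without LS1 replicate 3, 0.07 without Control replicate 2, 0.23 without Control replicate 3 and 0.27 without LS1 replicate 1. Without *Nog* these were *Id2* and *Id4*. *Id2*, a helix-loop-helix inhibitor of differentiation, had 4128, 4018 and 4113 normalized counts in Control and 5928, 5609.6 and 4670.3 in LS1, a log2 fold change of 0.40 (limma adjusted p = 0.282). *Id1*, the most widely used BMP target, had 861, 841 and 903 in Control and 568, 1299 and 1707 in LS1. LS1 replicate 1, which had the highest *Nog*, had the lowest *Id1* of the 6 libraries, and LS1 replicate 3, with the lowest *Nog* of its group, had the highest. *Id3* followed the same order within LS1, with 2922, 4002 and 6159.9, against 3517, 3348 and 4983 in Control. *Id2* and *Id4* ran the other way within LS1, falling from replicate 1 to replicate 3 as *Nog* did. *Id4* had 510, 402 and 393 there, against 258, 283 and 311 in Control. A link between *Nog* and these targets was not tested. The log2 fold changes of *Id1* and *Id3* were 0.31 and 0.10, with intervals of -0.47 to 1.10 and -0.49 to 0.68. Without LS1 replicate 3 they were -0.015 and -0.18, and without LS1 replicate 1 they were 0.78 and 0.35.

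Of 5 tested proteases that process ligands or antagonists, *Tll1*, which cleaves chordin, was higher at an unadjusted p-value under 0.05. Its normalized counts were 155, 116 and 104 in Control and 270.4, 231 and 258 in LS1, a log2 fold change of 1.03 (SE 0.25, limma adjusted p = 0.194, 0.0160 from DESeq2). *Bmp1*, which shares that activity despite its name and was chosen after its values were seen, had 0.04.

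**Figure D4:**
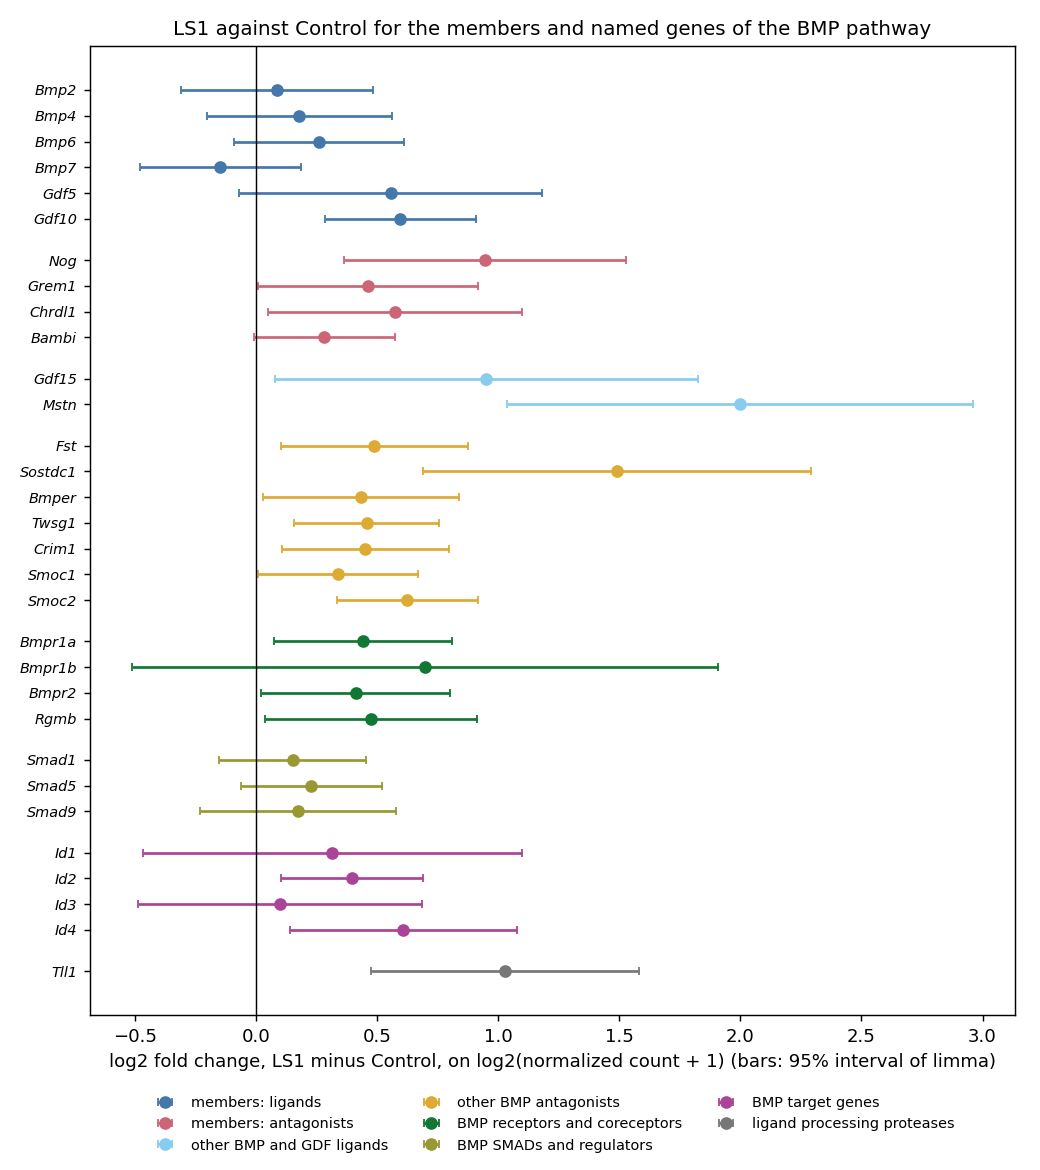
Log2 fold change of LS1 against Control with the 95% interval of limma for the 10 genes and for other named genes of the pathway, coloured by list. The antagonists among the 10 genes lie to the right of 0, the interval of *Bambi* reaching just below it. The intervals of *Bmp2*, *Bmp4*, *Bmp6*, *Bmp7* and *Gdf5* include 0. Genes outside the 10 are drawn only if fixed by name or at an unadjusted p-value under 0.05 from limma. Antagonists with log2 fold changes below 0, such as *Nbl1*, *Dand5*, *Sost* and *Chrd*, are therefore absent.

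Genes with the most similar profile were sought for the 3 members that the study also assayed by qPCR, over 6 libraries and 14770 genes with a mean of at least 100 reads. In its growth plate qPCR the study marked no significant LS1 difference for *Gdf10*, with a higher estimate, or *Bmp2*, with a slightly lower estimate. It assayed *Gdf5* only in tibia cultures. With so few libraries many genes come close, and a correlation here is a description that shares depth and group with its partner. For *Gdf10* the highest Pearson r were those of *Rhou* (0.997), *Fgl2* (0.994) and *Soat1* (0.993), and 118 genes had an r above 0.95. For *Bmp2* they were *Ago3* (0.995), *Elf1* (0.994) and *Mga* (0.989), and 125 genes had an r above 0.95. For *Gdf5* they were *Ctbp2* (0.992), *Gm13077* (0.989) and *6330403L08Rik* (0.978), with 25 genes above 0.95.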

How the data were processed

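RNA of 6 mice was sequenced, 3 per group, and grouped by the strain label. The authors mapped reads to GRCm38 (Ensembl release 84) with HISAT2 2.0.2, counted them per gene with featureCounts 1.4.6 and used DESeq2. The deposited values are a signal, the count divided by 1 size factor per library, and 100% were whole multiples of 1 read (tolerance 0.001 reads), so reads were recovered by division. Replicates of a group differed beyond read sampling (chi-square per degree of freedom of 42.9 to 164). Genes with a mean of at least 20 reads were compared with limma 3.58.1 (R 4.3.3) on log2(value + 1), with trend and robust moderation and Benjamini-Hochberg adjustment over 19308 genes at 0.05. The added 1 makes log2 changes of low genes smaller than they would be without it. Mice came from different families, with no litter stated. The limma p-values rest on the spread between these mice, moderated by that of other genes. With 3 against 3 an exact permutation test cannot go below 0.1. edgeR 4.0.16, DESeq2 1.42.0 and limma-voom on recovered reads were alternatives, with other settings. The fits were tested on simulated data. Symbols, exon lengths and overlaps came from GENCODE M21 (98.9% of identifiers matched) and promoters from RefSeq. The 10 genes and all lists were chosen with earlier results of these data known. Named were the 10 genes, 9 fixed receptors, SMADs and targets, and listed genes with an unadjusted p-value under 0.05, of which 1 is not reported here. SDs are the spread between mice, while SEs and intervals come from the moderated variance of limma.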

Additional observations from a re-analysis of the deposited data

How the results depend on the processing

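Among 16 alternatives, the number of the 10 genes called at an adjusted p-value under 0.05 moved from 0 to 2 with DESeq2 (*Gdf10* and *Nog*) and ranged from 0 to 2 when each library was left out, with 2 without LS1 replicate 3 (the same genes). For the 62 other pathway genes it moved from 0 to 5 with DESeq2 and ranged from 0 to 1 with a library left out. The fold changes of the 10 genes kept their direction in all fits except that of *Bmp2*, which ranged from -0.080 without LS1 replicate 1 to 0.22 without LS1 replicate 3. With a library left out, *Id1* ranged from -0.015 (without LS1 replicate 3) to 0.78 (without LS1 replicate 1) and *Id3* from -0.18 to 0.35 (the same libraries), with -0.0087 without Control replicate 2. The count of the 10 genes higher at an unadjusted p-value under 0.05 was 4 with limma, 2 with limma-voom, with Y-linked expression as a covariate, without Control replicate 2 and without LS1 replicate 1, 3 with TMM normalization, without Control replicate 3 and without LS1 replicate 2, 5 with the replicate block, and 4 in the other 8 alternatives. Over all genes limma called 14, DESeq2 459, edgeR 7, limma-voom 8, limma without a filter on reads 45 and limma with a mean of at least 100 reads 9, and without LS1 replicate 3 it called 324. A replicate block on the letter that opens each title called 0 of the 10 genes, 0 of the 62 and 12 in all. Same-letter libraries correlated at 0.054, 0.021 and 0.224 in their deviations from the group means, and Control replicate 1 correlated better with LS1 replicate 2, so the letters were not taken as pairs. The cause of these shifts was not tested. *Gdf5*, *Mstn* and *Sostdc1* rest on few reads and carry wide errors.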
